A study of Mus musculus with 16 samples.

Results

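Transcripts of 9 complement genes were followed across 16 mouse heart libraries. They are the 3 chains of C1q (C1qa, C1qb and C1qc), the components C3, C4b and Cfb, the inhibitor Serping1 and the receptors C3ar1 and C5ar1. These genes were taken by symbol, and all 9 were found among the 24421 genes of the deposited table. The hearts came from adult mice of about 3 months, and RNA was taken 2 weeks after surgery. In the order used here the groups are ERBB2-overexpressing (OE) infarcted hearts, wild-type (WT) infarcted hearts, OE sham-operated hearts and WT sham-operated hearts, with 4 animals in each. ERBB2 is a receptor tyrosine kinase that takes part in neuregulin signalling in heart muscle. Infarcts came from a permanent coronary ligation (LAD), done under isoflurane with ventilation per the labels' protocols. The promoter that drives ERBB2, the form of the receptor and the part of the heart taken are not given in the sources used here.

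Complement is a cascade of secreted proteins that tags cells and debris for uptake and calls in leukocytes. C1q, built from A, B and C chains and made mostly by tissue macrophages, starts the classical pathway by binding antibody or damaged cells. The protease C1r then activates C1s, which cuts C4 and C2. The resulting enzyme cuts C3, the central protein of the cascade, and factor B (Cfb) forms the alternative-pathway enzyme that amplifies this step. Serping1 encodes the C1 inhibitor, which blocks C1r and C1s, while C3ar1 and C5ar1 encode the receptors for the peptides released from C3 and C5 and are used by myeloid cells. In the infarcted heart the system is known for its part in inflammation and in the clearance of dead muscle.

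The 3 C1q genes lie side by side on the minus strand of chromosome 4 (GRCm38, which is the mm10 build of the files), C1qb at chr4:136880129-136886187, C1qc at chr4:136889804-136893065 and C1qa at chr4:136895917-136898803. C3 lies on chromosome 17 at chr17:57203970-57228136, apart from C4b at chr17:34728380-34743882 and Cfb at chr17:34856374-34862518, which share the major histocompatibility region. Serping1 is at chr2:84765387-84775444, C3ar1 at chr6:122847138-122856161 and C5ar1 at chr7:16246743-16259540. RefSeq promoter sequences (GRCm38.p6) were on hand for 5 of the 9 genes. The 250 bases before the RefSeq start of C1qb and of C3 are shown because the C1q chains moved together and C3 was the single gene called between the infarcted genotypes. Capitals mark the only match in each to one of 4 short motifs searched on both strands.
C1qb upstream, chr4:136886201-136886450, minus strand: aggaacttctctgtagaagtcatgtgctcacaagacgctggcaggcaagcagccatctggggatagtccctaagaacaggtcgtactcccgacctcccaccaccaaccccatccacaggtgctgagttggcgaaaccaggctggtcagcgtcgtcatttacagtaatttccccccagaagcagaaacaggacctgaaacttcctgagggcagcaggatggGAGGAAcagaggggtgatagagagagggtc
C3 upstream, chr17:57228137-57228386, minus strand: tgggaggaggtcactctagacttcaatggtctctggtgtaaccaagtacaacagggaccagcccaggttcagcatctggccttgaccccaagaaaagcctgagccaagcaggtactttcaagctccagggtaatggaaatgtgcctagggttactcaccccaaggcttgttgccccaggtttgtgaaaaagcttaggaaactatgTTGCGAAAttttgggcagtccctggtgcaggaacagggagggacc
The capitals in C1qb are GAGGAA, the core bound by PU.1, a factor of macrophages, at 30 bases before the start. C1qc carried the same core on the other strand (TTCCTC) at 193 bases before its start. In C3 they are TTGCGAAA, a match to the C/EBP form TTGCNNAA, at 45 bases before the start, and C3ar1 held TGACTCA, a match to the AP-1 form TGANTCA, at 22 bases. No match to the GAS form TTCNNNGAA was present in the 5 windows, and C5ar1 held none of the motifs. Among 32851 RefSeq promoters over the same 250 bases, 23.3% held GAGGAA or TTCCTC, 9.56% held TTGCNNAA or its other strand TTNNGCAA, 6.75% held TGANTCA and 7.02% held TTCNNNGAA, the last 2 of which read the same on both strands. A match describes letters in a window and no binding was measured.

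Values are the authors' normalized read counts, that is, reads per gene divided by 1 factor per library. Each library held between 11939093 and 17468914 reads on genes. Every OE library held more than every WT library, 14998464 to 17468914 against 11939093 to 14886191. The factors parted in the same way, 1.05 to 1.30 in OE and 0.774 to 0.949 in WT, so gene-read depth went with genotype. Erbb2 itself was between 793 and 2504 normalized reads in OE infarcted hearts and between 204 and 307 in WT infarcted hearts. In sham hearts it was between 792 and 2530 in OE and between 245 and 260 in WT, so the genotype labels held in all 16 libraries. Summed over 8 cardiomyocyte markers, the libraries held between 648512 and 1435060 normalized reads, as heart tissue does. Several infarcted libraries also held reads of other organs. Sftpc, the surfactant gene of lung epithelium, had 3520 and 1185 reads in OE infarcted replicates 2 and 3, and 4595, 1092 and 3815 in WT infarcted replicates 2, 3 and 4, against at most 6 in any of the other libraries. Rag1, a recombinase gene of thymocytes, had 332, 456 and 184 reads in OE infarcted replicates 1, 3 and 4, against at most 5 elsewhere. WT infarcted replicate 1 was therefore the single infarcted library with neither.

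Calls come from limma fitted to all 14298 genes with at least 10 normalized reads in at least 4 libraries, on log2(value + 1), with p-values adjusted over all of them by the Benjamini-Hochberg method and a threshold of 0.05. All 9 complement genes passed this filter. In infarcted against sham WT hearts 8 of the 9 rose and none fell, where 4.96% of all tested genes rose, 2.09% fell and 7.05% changed in either direction. Between OE and WT sham hearts 3 rose (C1qa, C1qb and C3ar1) and none fell, where 24.9% of tested genes rose, 24.5% fell and 49.3% changed. Only C3 was called between OE and WT infarcted hearts, and it was lower in OE, where 16.3% of tested genes were lower, 15.5% higher and 31.9% changed. No complement gene was called between infarcted and sham OE hearts, a comparison in which 0.00699% of tested genes, a single gene, were called. There 2 of the 9, C1qb and C3, had an unadjusted p below 0.05, as had 10.1% of all tested genes, and neither edgeR nor DESeq2 called any of the 9. In bulk tissue a change in the number of cells of a type and a change in RNA per cell cannot be told apart.

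**Figure D1:**
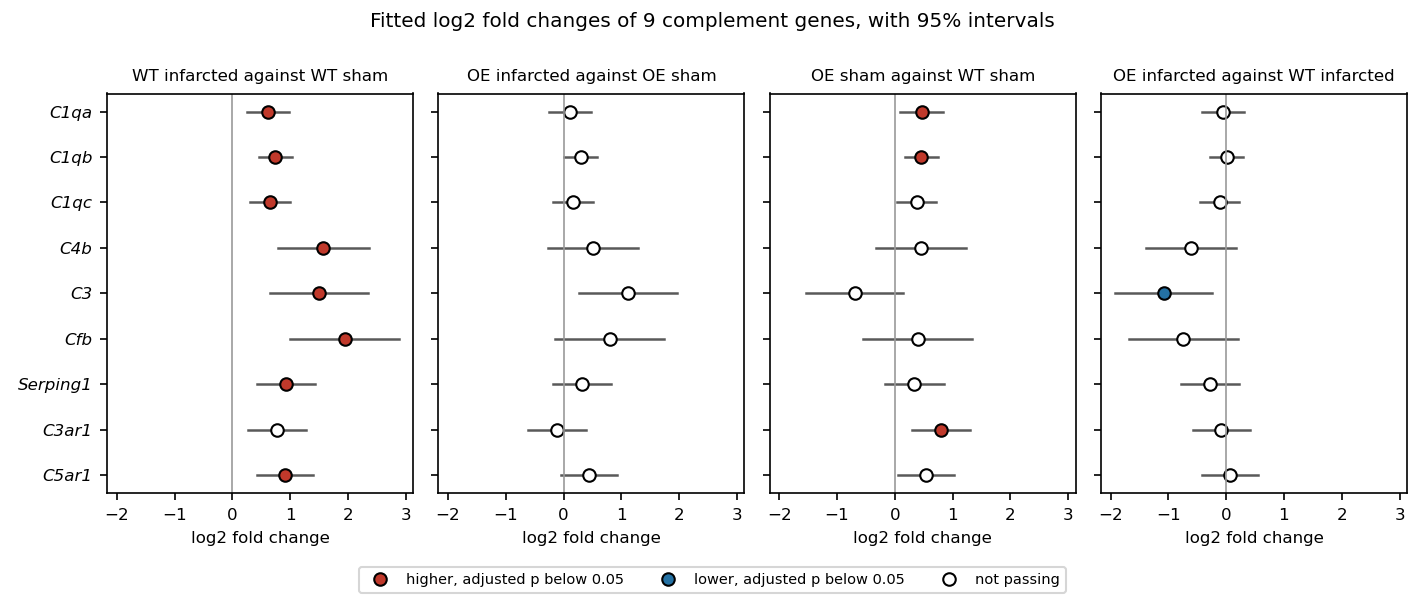
Fitted log2 fold changes (x axis, first-named group over second) of 9 complement genes (rows) in 4 comparisons, with 95% intervals as lines. Filled points passed the adjusted p threshold of 0.05: 8 genes in WT infarcted against WT sham hearts, none in OE infarcted against OE sham hearts, 3 in OE sham against WT sham hearts and C3, lower, in OE infarcted against WT infarcted hearts.

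The C1q chains were higher in WT infarcted than in WT sham hearts, by 1.54 to 1.67 times, and C1qa and C1qb were also higher in OE sham than in WT sham hearts, by 1.38 times each. C1qa had 2147, 1606, 1479 and 1217 normalized reads in OE infarcted replicates 1 to 4, and 1524, 1163, 2262 and 1782 in the WT infarcted ones. Its sham values were 1397, 1413, 1569 and 1476 in OE hearts and 1043, 988, 1105 and 1112 in WT hearts. Every OE sham library and every WT infarcted library lay above every WT sham library, the OE sham hearts within a narrow band and the infarcted hearts of either genotype widely spread. C1qb had 2087, 1652, 1626 and 1387 in OE infarcted hearts and 1504, 1326, 2167 and 1741 in WT infarcted hearts, against 1317, 1258, 1471 and 1403 in OE sham and 1024, 919, 938 and 1083 in WT sham hearts. OE sham, WT infarcted and OE infarcted hearts all lay wholly above WT sham hearts, for C1qb as for C1qa. For C1qc the values were 1841, 1521, 1289 and 1084 in OE infarcted hearts and 1526, 1150, 2002 and 1521 in WT infarcted hearts, against 1131, 1200, 1346 and 1350 in OE sham and 1049, 848, 927 and 1056 in WT sham hearts. Both OE sham and WT infarcted hearts again stood above all WT sham hearts, by the smallest gap of the 3 chains in the OE sham case.

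On the log2 scale the infarct changes in WT hearts were 0.62 ± 0.17 for C1qa (SE; adjusted p = 0.0409), 0.74 ± 0.14 for C1qb (adjusted p = 0.00617) and 0.65 ± 0.16 for C1qc (adjusted p = 0.0268). The OE sham changes were 0.46 ± 0.17 for C1qa (adjusted p = 0.0353) and 0.46 ± 0.14 for C1qb (adjusted p = 0.0104), while C1qc, at 0.38 ± 0.16, missed the threshold (adjusted p = 0.0648). Scaling to library totals shifted the median of all genes by 0.15 on the log2 scale between OE and WT sham hearts and by 0.13 between OE and WT infarcted hearts, and relative to those medians the sham changes kept their direction. The C1qa call between sham hearts was lost in 10 of 28 alternative settings, 8 of them fits that left out 1 library, with adjusted p up to 0.12. Its infarct call in WT hearts was lost in 15 of 28, 9 of them fits that left out 1 library. The infarct calls of C1qb and C1qc in WT hearts were lost in 3 and 7 of 28. Between the 2 infarcted genotypes no chain differed by more than its error, with log2 differences of -0.05 (95% interval -0.42 to 0.31) for C1qa, 0.01 (-0.28 to 0.30) for C1qb and -0.11 (-0.45 to 0.23) for C1qc. Infarcted against sham OE hearts gave 0.11 (-0.25 to 0.48), 0.30 (0.01 to 0.58) and 0.17 (-0.18 to 0.51) for the A, B and C chains in that order, none of which passed.

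**Figure D2:**
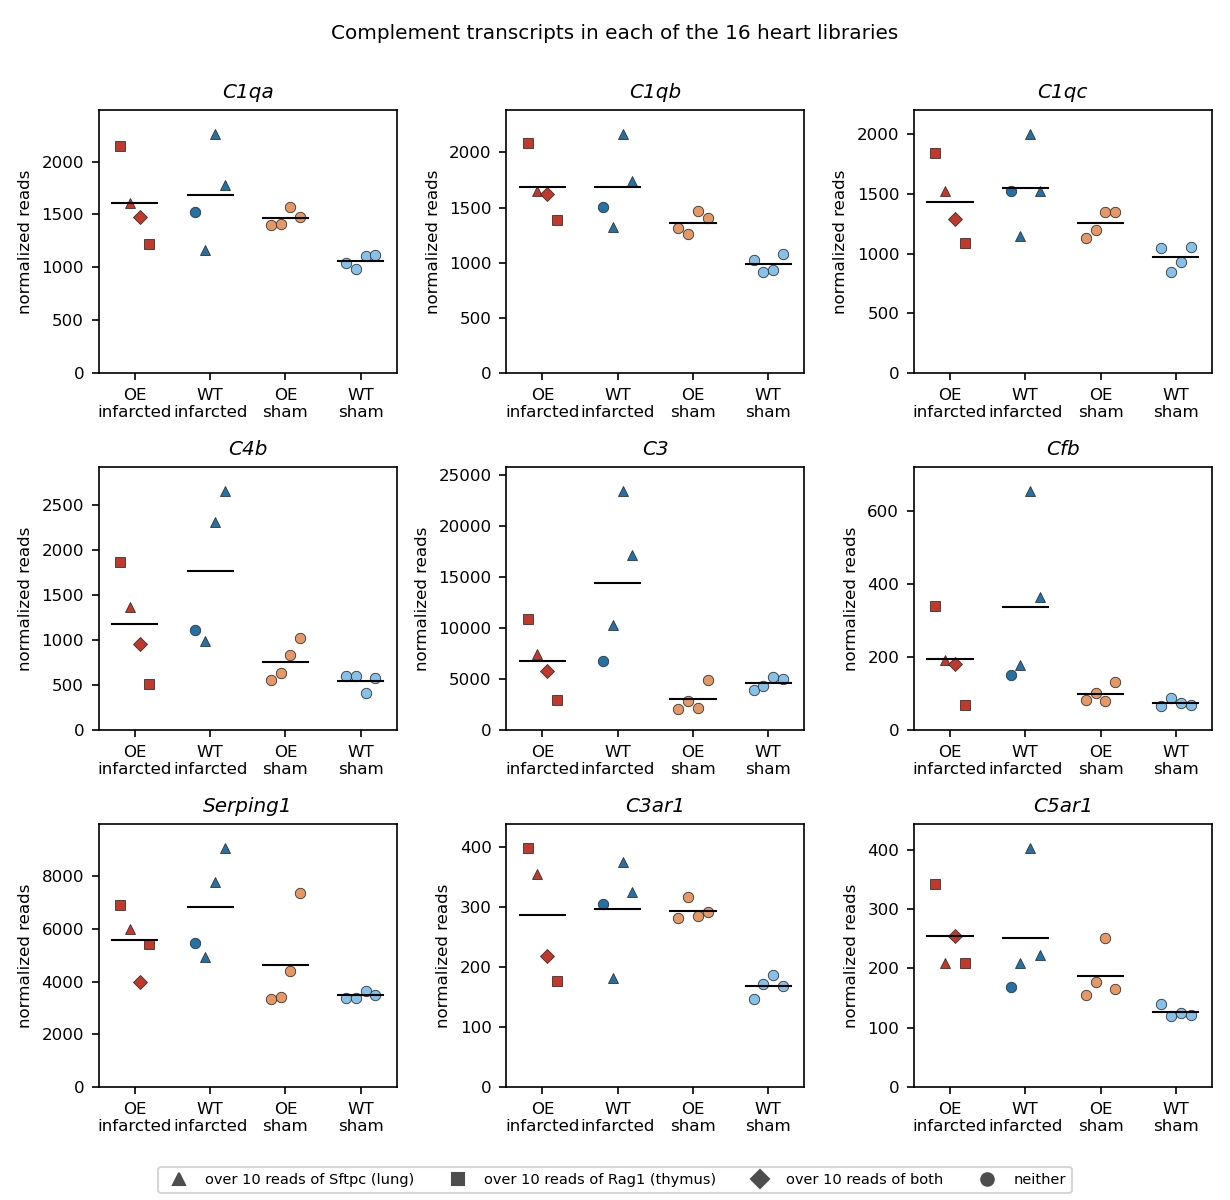
Normalized reads (y axis, from 0, a different scale per gene) of 9 complement genes in every library of the 4 groups (x axis); each point is 1 heart, in replicate order, and the line is the group mean. Triangles and diamonds mark libraries with over 10 reads of lung Sftpc, squares and diamonds those with over 10 reads of thymic Rag1; WT infarcted replicate 3 is the highest of 16 libraries for 6 of the 9 genes.

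C4b, the mouse C4 component cut by C1s, rose 2.98 times in infarcted WT hearts. Its values were 1862, 1363, 957 and 510 normalized reads in OE infarcted hearts and 1106, 988, 2303 and 2653 in WT infarcted hearts. Sham hearts had 556, 634, 833 and 1018 in OE and 599, 597, 409 and 577 in WT. All WT infarcted libraries lay above all WT sham libraries, whereas OE infarcted hearts ran from below the lowest OE sham heart to far above the highest. The log2 change with infarction in WT hearts was 1.57 ± 0.37 (SE; adjusted p = 0.0219), and in OE hearts 0.51 ± 0.37 (adjusted p = 0.641). OE and WT hearts did not differ past the threshold when infarcted (-0.61 ± 0.37, adjusted p = 0.233) or after sham surgery (0.45 ± 0.37, adjusted p = 0.323). C4b shares 29.7% of its 60-base stretches, the length of the reads, with its copy C4a, which makes the split of reads between the pair uncertain. C4a had at most 89.5 normalized reads in any library and at least 15.6 reads fell on C4b for each one on C4a. With both summed, the C4b calls stood on the same side of the threshold in each comparison.

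C3 was the most abundant of the 9 by reads in every WT heart of either surgery, and it rose 2.84 times with infarction there. OE infarcted hearts had 10898, 7462, 5831 and 2949 normalized reads, and WT infarcted hearts had 6762, 10285, 23471 and 17169. In sham hearts the counts were 2086, 2800, 2205 and 4894 in OE and 3880, 4339, 5169 and 4983 in WT. WT infarcted hearts lay wholly above WT sham hearts. Of the OE sham hearts, 3 lay below all WT sham hearts and replicate 4 lay among them, and the OE and WT infarcted groups overlapped, since WT replicate 1 was below OE replicates 1 and 2. The log2 change with infarction in WT hearts was 1.50 ± 0.40 for C3 (SE, adjusted p = 0.0350). In infarcted hearts it was lower in OE than in WT, by -1.08 ± 0.40 on the log2 scale (adjusted p = 0.0485). That call was lost in 20 of 28 alternatives, with adjusted p between 0.0150 and 0.815, and without the 5 lung-bearing libraries the difference was -0.25 (adjusted p = 0.815). Leaving out OE infarcted replicate 4 gave -0.73 and leaving out WT infarcted replicate 3 gave -0.79, neither of which passed. After sham surgery OE hearts had -0.70 ± 0.40 relative to WT (adjusted p = 0.161), and infarcted against sham OE hearts gave 1.12 ± 0.40 (adjusted p = 0.419).

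Cfb, the protease component of the alternative pathway, had the largest infarct change of the 9 in WT hearts, 3.85 times. It had 340, 192, 181 and 68.7 normalized reads in OE infarcted hearts and 152, 178, 655 and 364 in WT infarcted hearts. The sham groups were low throughout, with 81.3, 101, 79.9 and 131 in OE hearts and 64.6, 88.1, 73.5 and 67.4 in WT hearts. WT infarcted hearts stood wholly above WT sham hearts, while OE infarcted replicate 4 was below every OE sham heart. The log2 change was 1.95 ± 0.44 in WT hearts (SE; adjusted p = 0.0197) and 0.80 ± 0.44 in OE hearts (adjusted p = 0.542). OE infarcted hearts had -0.74 ± 0.44 relative to WT infarcted hearts (adjusted p = 0.224) and OE sham hearts 0.40 ± 0.44 relative to WT sham hearts (adjusted p = 0.478). The annotation places Gm20547 across Cfb and C2, which was not analysed here.

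Serping1, the inhibitor of the first classical-pathway proteases, rose 1.90 times with infarction in WT hearts. OE infarcted hearts had 6916, 5976, 3968 and 5431 normalized reads, and WT infarcted hearts 5476, 4946, 7791 and 9066. OE sham hearts had 3356, 3429, 4400 and 7374, and WT sham hearts 3394, 3362, 3651 and 3499. The 4 WT sham hearts were almost alike and below all WT infarcted hearts, whereas OE sham replicate 4 was above all 4 OE infarcted hearts. Infarction changed it by 0.93 ± 0.24 on the log2 scale in WT hearts (SE; adjusted p = 0.0306) and by 0.31 ± 0.24 in OE hearts, which did not pass (adjusted p = 0.661). OE and WT hearts gave -0.28 ± 0.24 when infarcted (adjusted p = 0.411) and 0.34 ± 0.24 after sham surgery (adjusted p = 0.252).

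Of the receptors, C3ar1 was called in the OE sham hearts and C5ar1 in the WT infarcted hearts. C3ar1, which binds the C3a peptide, had 398, 355, 218 and 176 normalized reads in OE infarcted hearts and 305, 182, 375 and 325 in WT infarcted hearts. Its sham values were 282, 316, 285 and 292 in OE hearts and 147, 172, 186 and 169 in WT hearts. The OE sham hearts formed a tight group above all WT sham hearts, and of the WT infarcted hearts replicate 2 alone fell inside the WT sham range. The OE sham change was 0.80 ± 0.24 on the log2 scale, or 1.74 times (SE; adjusted p = 0.0105). Infarcted WT hearts had 0.77 ± 0.24 relative to sham ones, which missed the threshold (adjusted p = 0.0596). C5ar1, the receptor of the C5a peptide, had 343, 210, 255 and 210 in OE infarcted hearts and 169, 209, 403 and 222 in WT infarcted hearts, against 156, 177, 251 and 166 in OE sham and 141, 120, 124 and 121 in WT sham hearts. WT sham hearts were the lowest in each case, with no overlap with either OE sham or WT infarcted hearts. Its infarct change in WT hearts was 0.91 ± 0.23 (adjusted p = 0.0294), and its OE sham change, 0.54 ± 0.23, missed the threshold (adjusted p = 0.0616). OE and WT infarcted hearts gave -0.08 (95% interval -0.58 to 0.42) for C3ar1 and 0.07 (-0.42 to 0.56) for C5ar1.

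By ranges alone, 8 of the 9 genes had WT infarcted hearts wholly above WT sham hearts, C3ar1 being the exception, where 7.78% of all tested genes did. OE sham hearts stood wholly above WT sham hearts for 5 of the 9, the C1q chains and both receptors, where 24.3% of tested genes did. For none of the 9 did OE infarcted hearts separate from OE sham hearts (5.05% of tested genes, either direction) or from WT infarcted hearts (26.6%). These comparisons share the WT sham or the infarcted libraries and so are not independent of each other. Within the OE infarcted group replicate 1 was the highest for all 9 genes and replicate 4 the lowest for 8, all but Serping1. For C5ar1 replicates 2 and 4 were all but tied, at 210 each. OE infarcted replicate 4 exceeded every WT sham heart for 5 of the 9, against 9 of 9 for the other 3 OE infarcted hearts. Both replicates 1 and 4 were free of lung reads (6 and 0 of Sftpc) and held thymic reads (332 and 184 of Rag1).

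The difference between the infarct responses of the 2 genotypes was tested as an interaction, and none of the 9 passed, where 0.0839% of tested genes did. All 9 estimates were negative, that is, smaller changes in OE hearts, from -0.39 ± 0.56 for C3 to -1.14 ± 0.63 for Cfb on the log2 scale (SE). Of all 14298 tested genes 7321 had a positive estimate. The 9 genes correlated with each other over the 16 libraries (median r = 0.81), so their signs are not independent. The smallest adjusted p among them was 0.389, for C3ar1 (-0.88 ± 0.33). Unadjusted p was below 0.05 for 3 of the 9, C1qb, C1qc and C3ar1, as for 9.90% of all tested genes, and edgeR and DESeq2 each called none. Without the lung-bearing libraries the estimates for C3 and C5ar1 were positive, at 0.44 and 0.12.

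Lung reads went in part with infarction in WT hearts, since only infarcted WT libraries were lung-bearing. Summed over 10 lung epithelial markers, WT infarcted replicates 1 to 4 had 31.3, 10908, 2192 and 7541 normalized reads, against 22.0 to 25.7 in WT sham hearts. Of the 10 markers 2 rose past the threshold, where 4.96% of all tested genes rose. With group means removed, the lung sum correlated at 0.43 with C3, 0.35 with Cfb and 0.31 with C4b. For the C1q chains, Serping1 and both receptors r was -0.06 to 0.08. Without the 5 lung-bearing libraries, WT infarcted hearts were represented by replicate 1 alone, which the fit takes to vary like the other groups. All 9 log2 changes stayed positive, from 0.42 for C5ar1 to 1.05 for Cfb, with 0.57 for C3, and none passed, but neither did all but 5 of the tested genes. In this lung-free heart all 9 genes exceeded every WT sham heart, from 1.34 times the WT sham mean for C5ar1 and 1.47 times for C3 to 2.07 times for Cfb. Between OE and WT infarcted hearts the 9 lung-free differences ran from -0.25 for C3 to 0.66 for C5ar1, whose value over all libraries was 0.07, and none passed. With the lung and thymus sums as covariates the 9 infarct changes in WT hearts ran from 0.64 for C1qa to 1.24 for Cfb and again none passed, nor did any of the 14298 genes. The WT count was 1 without WT infarcted replicate 3 and also 1 without replicate 4, where 2.09% and 3.89% of all tested genes were called. It was 5, 2, 2 and 3 without WT sham replicates 1, 2, 3 and 4, in that order. The shares of all tested genes were 4.22%, 1.93%, 5.01% and 3.25% there. Over all alternatives the infarct call in WT hearts was lost in 11 of 28 for C3 and 9 of 28 each for Serping1 and C5ar1. For C4b it was lost in 7 of 29 and for Cfb in 6 of 28. The authors' deposited table called all 9 higher in infarcted WT hearts, C3 lower in OE than in WT infarcted hearts, and C1qa, C1qb and C3ar1 higher in OE than in WT sham hearts.

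Per kilobase of exon, the order in OE sham hearts was Serping1 (1996 ± 810 normalized reads per kilobase, SD, n = 4), C1qa (1407 ± 74.9), C1qb (1252 ± 86.0), C1qc (651 ± 56.6) and C3 (583 ± 253). Lengths joined all GENCODE exons of a gene, whereas reads were counted on RefSeq genes, so the comparison between genes is approximate. C1qc had 1931 bases, against 1040 for C1qa and 1088 for C1qb, and its place in the order depends on that length. In WT sham hearts C3, at 893 ± 115, stood beside C1qb (911 ± 70.4) and above C1qc (502 ± 52.2), below C1qa (1021 ± 56.1) and Serping1 (1495 ± 56.0). C1qb and C3 did not differ beyond their spread there, nor did C1qc and C3 in OE sham hearts. C4b (133 ± 36.4 in OE sham and 95.8 ± 16.1 in WT sham hearts), C5ar1 (72.9 ± 16.9 and 49.2 ± 3.78) and C3ar1 (68.2 ± 3.62 and 39.2 ± 3.75) followed, and Cfb was the lowest (34.8 ± 8.39 and 26.0 ± 3.71). After infarction C3 reached 1319 ± 645 in OE hearts and 2804 ± 1443 in WT hearts. In the infarcted WT hearts Serping1 (2933 ± 835) and C3 overlapped and headed the order, with C1qa (1618 ± 444) and C1qb (1548 ± 335) next.

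The C1q chains kept similar proportions. For each C1qa read there were 0.85 to 1.14 C1qb reads and 0.81 to 1.005 C1qc reads over the 16 libraries, and the chains' log2 values correlated at r = 0.95 to 0.96, or 0.93 to 0.96 with group means removed. C1qb per C1qa was 0.97 to 1.14 in OE infarcted, 0.96 to 1.14 in WT infarcted, 0.89 to 0.95 in OE sham and 0.85 to 0.98 in WT sham hearts. OE sham hearts thus lay below both infarcted groups on this ratio, which was not tested. Macrophage markers moved with them: the sum of 16 such markers, none of them a complement gene, was 5107 to 8137 normalized reads in OE infarcted hearts, 6439 to 9422 in WT infarcted hearts, 4864 to 5880 in OE sham hearts and 4228 to 4703 in WT sham hearts. Of these 16 markers 8 rose and 1 fell in OE sham against WT sham hearts, where 24.9% of all tested genes rose and 24.5% fell. In WT infarcted against WT sham hearts 4 rose, where 4.96% of all tested genes rose and 2.09% fell. Other cell types moved as well, against the same shares of all tested genes. Of 12 fibroblast markers 9 rose and 1 fell in OE sham against WT sham hearts, and 10 rose in WT infarcted against WT sham hearts. Of 8 cardiomyocyte markers 6 and 2 fell in those comparisons. With group means removed, C1qa correlated at 0.81 with the macrophage sum and 0.80 with the fibroblast sum, and C3ar1 at 0.66 and 0.72; the part of these cell types in the C1q and C3ar1 results was not tested. The summed C1q reads per macrophage marker read were 0.71 to 0.75 in OE infarcted hearts and 0.52 to 0.75 in WT infarcted hearts. They were 0.72 to 0.79 in OE sham hearts and 0.65 to 0.71 in WT sham hearts, 2 groups that did not overlap. Per read of Csf1r, 1 of the 16 macrophage markers, summed C1q was 2.80 to 3.64 in OE sham hearts and 2.72 to 3.02 in WT sham hearts, which overlapped. Neither ratio was tested. The genes most like the C1q chains over the 16 libraries were Plek, Tyrobp and Irf5 for C1qa (r = 0.96 to 0.97), Laptm5, Irf5 and Ctss for C1qb (r = 0.96 to 0.98) and Tyrobp, Irf5 and Plek for C1qc (r = 0.94 to 0.96). Lilr4b, Plek and Trem2 were the nearest to C3ar1 (r = 0.93 to 0.96). These correlations describe 16 libraries that share groups and preparation.

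The single genes nearest to C3 were Msln, the mesothelial surface protein mesothelin (r = 0.96, and 0.91 with group means removed), Cfp, the alternative-pathway stabiliser properdin (r = 0.96), and Pkhd1l1 (r = 0.95). With the sum of 8 epicardial and mesothelial markers r was 0.93, or 0.80 with group means removed, whereas C1qa gave 0.33, or 0.32 with group means removed. With the macrophage sum C3 gave 0.77, or 0.81 with group means removed, so within groups it followed both sums about equally. With the lung epithelial sum C3 gave 0.70, or 0.43 with group means removed. The epicardial and mesothelial markers summed were Msln, Upk3b, Upk1b, Wt1, Lrrn4, Krt19, Krt8 and Bnc1. The epicardial and mesothelial sum was 1052 to 1701 normalized reads in OE infarcted hearts, 1281 to 3458 in WT infarcted hearts, 380 to 1164 in OE sham hearts and 855 to 1682 in WT sham hearts. The 3 lung-bearing WT infarcted hearts had the highest sums, 2759 to 3458. In OE sham against WT sham hearts 2 of these 8 markers fell, where 24.5% of all tested genes fell. In WT infarcted against WT sham hearts 1 rose, where 4.96% of all tested genes rose. The part of mesothelial or lung tissue in the C3 values was not tested. C3 reads per C1qa read, a ratio chosen after the values were seen and given with no test, were 2.42 to 5.08 in OE infarcted hearts, 4.44 to 10.4 in WT infarcted hearts, 1.41 to 3.32 in OE sham hearts and 3.72 to 4.68 in WT sham hearts. The lung-free WT infarcted replicate 1 had 4.44, within the WT sham range, and the 3 lung-bearing WT infarcted hearts had 8.84 to 10.4. OE sham hearts were all below WT sham hearts on this ratio. The log2 values of C3, C4b, Cfb and Serping1 correlated with each other at r = 0.72 to 0.94 (median 0.84), or 0.53 to 0.94 with group means removed (median 0.76). With the C1q chains they correlated at 0.55 to 0.88 (median 0.81), or 0.55 to 0.84 with group means removed (median 0.74), so the components did not form a set clearly apart from C1q. Fgr, Pdpn and C1ra were nearest to C4b (r = 0.91 to 0.93), Itgam, C1s1 and Saa3 to Cfb (r = 0.95 to 0.96), and Dpt, Apoe and Clec4a1 to Serping1 (r = 0.90 to 0.93).

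**Figure D3:**
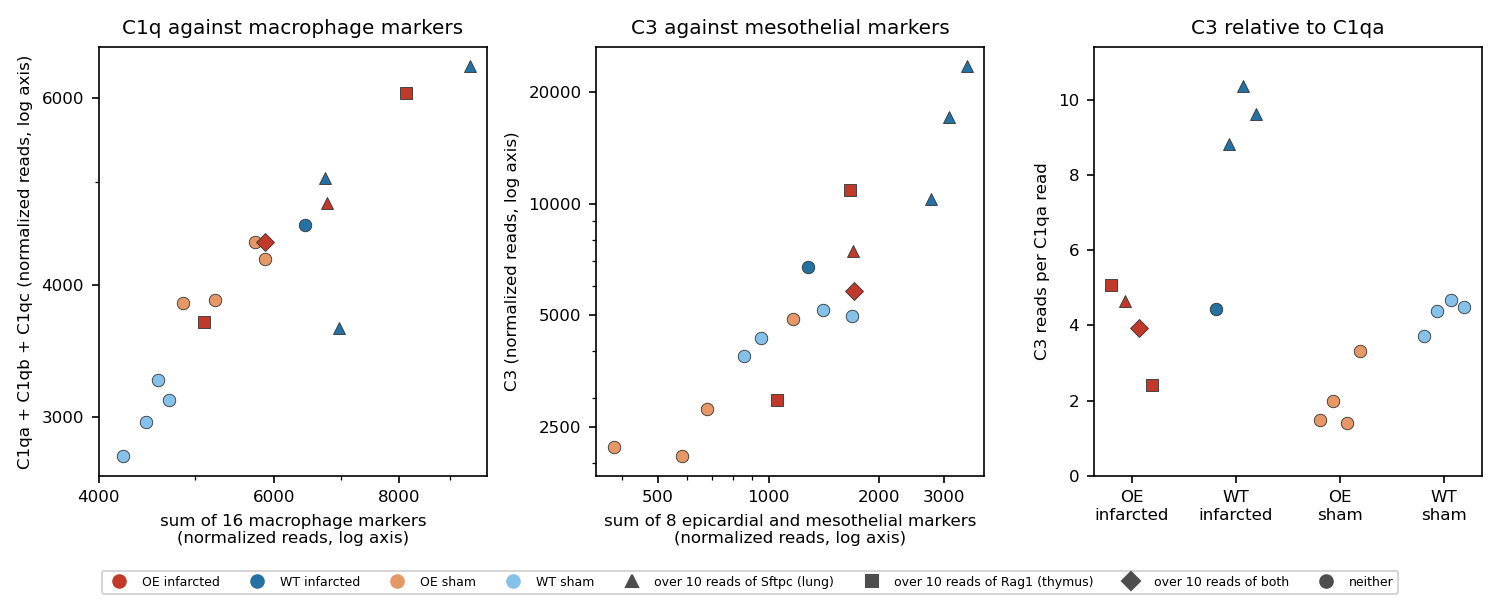
Left, summed C1q reads against the sum of 16 macrophage markers; middle, C3 against the sum of 8 epicardial and mesothelial markers (both in normalized reads on log axes); right, C3 reads per C1qa read by group; each point is 1 heart. C1q and macrophage markers rise along 1 band, with WT infarcted replicate 2 under it, while the 3 lung-bearing WT infarcted hearts are highest in mesothelial markers and in C3 per C1qa (8.84 to 10.4).

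The rest of the complement system was read from 46 further genes of the classical and lectin, alternative and terminal pathways, the regulators and the receptors, of which 34 were tested. In WT infarcted against WT sham hearts 10 of the 34 rose and none fell, where 4.96% of all tested genes rose and 2.09% fell, with a median log2 change of 0.55 against -0.03 over all tested genes. Without the lung-bearing libraries all 10 kept a positive sign and none passed, and the median was 0.27. Those of smallest adjusted p were Colec12, a scavenger collectin, Itgax, a chain of complement receptor 4, C1ra and C1s1, the C1 proteases, Hc, which encodes C5, and Cfi, the protease that inactivates C3b and C4b. C1ra had 481 to 932 normalized reads in WT infarcted hearts against 251 to 331 in WT sham hearts, a log2 change of 1.12 ± 0.22 (SE; adjusted p = 0.00945). C1s1 had 830 to 2210 in WT infarcted hearts against 530 to 720 in WT sham hearts (1.12 ± 0.24, adjusted p = 0.0144). Without the lung-bearing libraries their changes were 0.83 and 0.40, neither of which passed. Colec12 changed by 0.49 ± 0.08 (adjusted p = 0.00387) and Itgax by 1.98 ± 0.39 (adjusted p = 0.00903). Cfi, at 16.4 to 37.4 in WT infarcted hearts and 1.28 to 8.04 in WT sham hearts, changed by 2.28 ± 0.49 (adjusted p = 0.0141). Hc had 4.82, 334, 47.8 and 107 in WT infarcted replicates 1 to 4 and at most 2.58 in WT sham hearts, and its 3 high values were those of the lung-bearing libraries. The other 4 that rose, named after their values were seen, were C2, Cfp, Itgam and Itgb2.

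In OE sham against WT sham hearts 8 of the 34 rose and 4 fell, with a median of 0.11 against 0.01 over all genes. Of all tested genes 24.9% rose and 24.5% fell there, so 8 of 34 is near the background share and 4 of 34 below it. Colec12 had 1044 to 1219 normalized reads in OE sham hearts against 526 to 619 in WT sham hearts (log2 change 0.97 ± 0.08 SE, adjusted p = 2.97e-07). Clu, which encodes clusterin, a fluid-phase inhibitor of the terminal complex, had 21517 to 26041 in OE sham hearts against 12022 to 15285 in WT sham hearts (0.80 ± 0.14, adjusted p = 0.000193). Cd93, a surface lectin of endothelium once taken for a C1q receptor, changed by 0.54 ± 0.10 (adjusted p = 0.000294) and Itgax by 1.77 ± 0.39 (adjusted p = 0.00139). Cd59a, the membrane inhibitor of the terminal complex, fell: it had 996 to 1131 in OE sham hearts against 1646 to 1953 in WT sham hearts (-0.74 ± 0.11, adjusted p = 3.58e-05). C1qbp, a mainly mitochondrial protein first isolated through its binding to C1q, was at 1338 to 1647 in OE sham hearts against 2306 to 2624 in WT sham hearts (-0.69 ± 0.07, adjusted p = 1.56e-06).

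**Figure D4:**
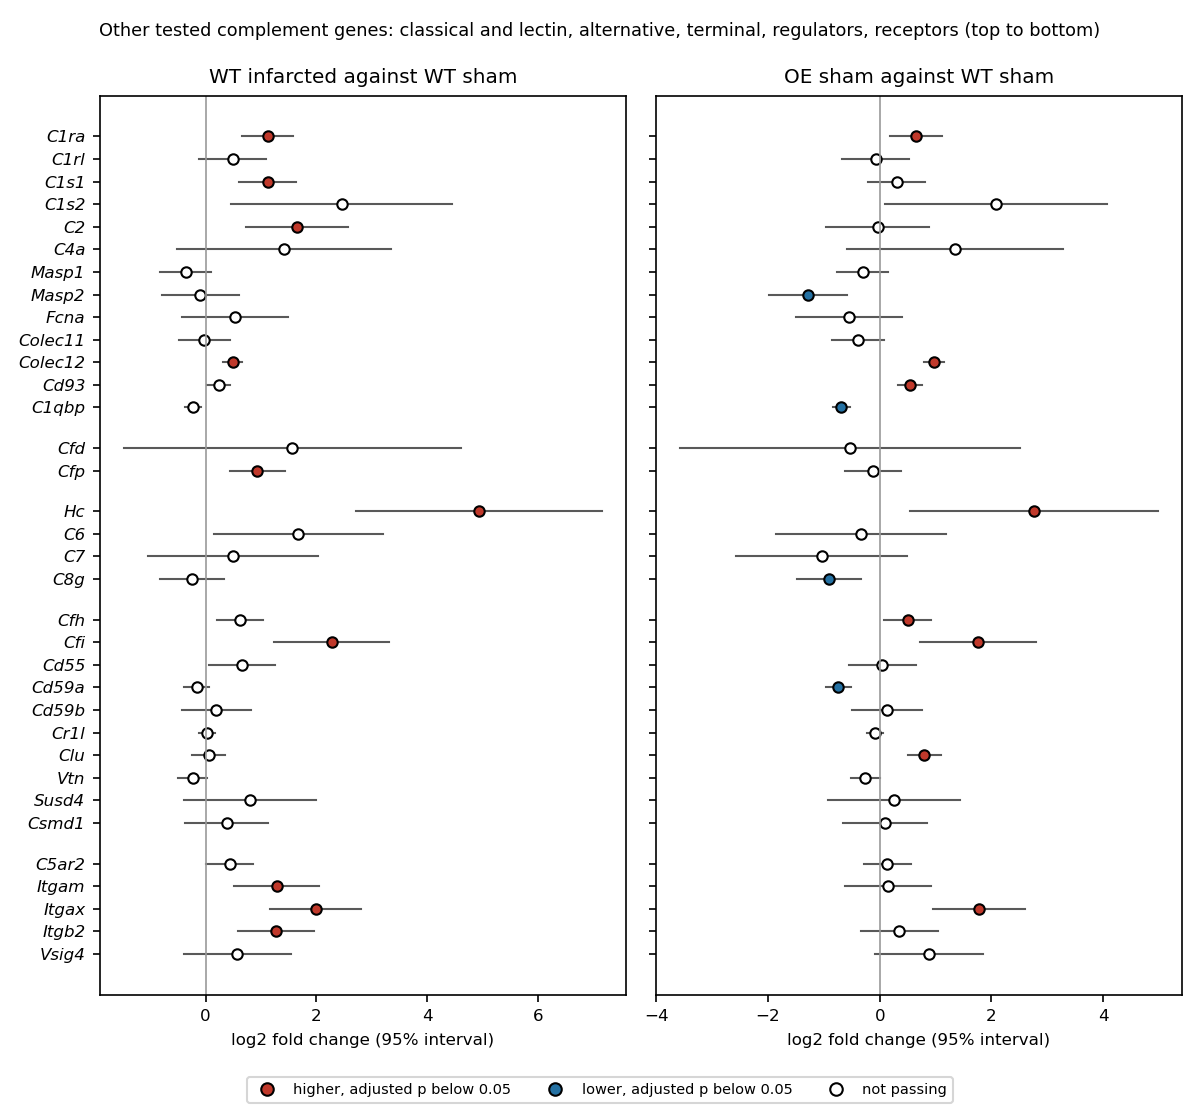
Log2 fold changes (x axis, with 95% intervals as lines) of the 34 other tested complement genes (rows, in blocks by pathway) in WT infarcted against WT sham hearts (left) and OE sham against WT sham hearts (right). Filled points passed the adjusted p threshold of 0.05: 10 higher on the left, and 8 higher and 4 lower on the right.

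In infarcted hearts 2 of the 34 were higher in OE than in WT and 4 were lower, with a median of -0.30 against 0.01 over all genes. Both counts are below the background, in which 15.5% of tested genes were higher and 16.3% lower. Without the lung-bearing libraries WT infarcted replicate 1 alone was set against OE infarcted replicates 1 and 4. All 6 differences kept their sign there, at 0.68 for Clu, 0.53 for Colec12, -0.83 for C1qbp and -0.61 for Cd59a. C1s2 gave -2.04 and Cr1l -0.069, and the median of the 34 was 0.086. The 2 higher in OE over all libraries were Clu, at 20868 to 31328 normalized reads in OE infarcted hearts against 11026 to 15857 in WT infarcted hearts (log2 difference 0.88 ± 0.14 SE, adjusted p = 0.000217), and Colec12 (0.40 ± 0.08, adjusted p = 0.00155). C1qbp (-0.70 ± 0.07, adjusted p = 6.62e-06), Cd59a (-0.49 ± 0.11, adjusted p = 0.00235) and Cr1l, the rodent membrane regulator Crry (-0.20 ± 0.07, adjusted p = 0.0367), were lower. C1s2 was also lower, with 50.2, 3.897, 2.78 and 3.52 in OE infarcted hearts and 61.5, 40.6, 76.1 and 44.2 in WT infarcted hearts (-2.76 ± 0.94, adjusted p = 0.0339). OE infarcted replicate 1 stood with the WT hearts for this gene, and C1s2 shares 60-base stretches with C1s1, which shares 19.7% of its own with it, so its counts are uncertain. Infarcted against sham OE hearts and the interaction gave no call among the 34. C1ra shares 44.3% of its stretches with C1rb, which was below the filter. Cd59b, the copy of Cd59a, stayed between 16.2 and 42.2 normalized reads in all libraries and passed in no comparison. The terminal components C8a and C8b had no read in any library, and C9, Mbl1, Mbl2 and C4bp had at most 1.15 normalized reads.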

How the data were processed

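RNA from 16 mouse hearts was sequenced from polyadenylated RNA as single reads. Per the series' design text and the submitters' processing notes, adapters were trimmed with cutadapt, reads under 40 bases were dropped, reads were sampled down to one equal number per library, aligned to mm10 with TopHat 2.0.10, counted on RefSeq genes with HTSeq-count 0.6.1p1 and normalized with DESeq2 1.6.3. Whether counting used strand is not given in the sources used here. The deposited values are normalized counts, a signal made by dividing counts by 1 size factor per library. Dividing back gave whole reads for 100% of values (tolerance 0.001). The log2 fold changes and adjusted p-values of the authors were read only as the authors' deposited table.

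Genes at 10 or more in at least 4 libraries (14298) were fitted with limma 3.58.1 (trended variance, R 4.3.3) on log2(value + 1), with 1 mean per group over 16 libraries, so a fold change understates that of low genes. P-values are two-sided and adjusted by Benjamini-Hochberg. The fit was tested on simulated data. Alternatives were edgeR 4.0.16 and DESeq2 1.42.0 on recovered reads, other pseudocounts, scalings, filters, covariates and left-out libraries. Leaving out the libraries with over 10 reads of Rag1 was chosen after seeing the data. The members and gene lists were chosen with earlier results of these data known. Named genes are the 9 members, Erbb2, up to 6 other complement genes of smallest adjusted p per comparison, near-identical copies, and the 3 genes best correlated with each member, which for C5ar1 are not reported here. Per-library counts of 0 carry counting error only.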

Additional observations from a re-analysis of the deposited data

Results flagged for a closer look

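C4b in WT sham replicate 3 had 409 normalized reads, against 577 to 599 in the other 3 WT sham hearts, a gap that took 0.885 of the group's range, beyond Dixon's 95% critical value for 4 samples. It was the single such case among 36 groups screened (9 genes in 4 groups), a screen in which chance alone marks about 1 group in 20. No complement gene had an infarct response that differed between OE and WT hearts past the threshold.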

How the results depend on the processing

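Each of the 9 genes was recomputed in each comparison under up to 29 alternatives, 1256 single values in all, of which 1102 kept direction and side of the threshold, 99 lost their call, 24 gained one and 31 changed sign, all 31 of them differences that were not called. The cause of these changes was not tested.

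Of the 9 genes, the number called between OE and WT sham hearts (3) was 5 with library totals, 6 with only the 2 groups in the fit, 5 without the libraries with over 10 reads of Sftpc, 0 within RA numbers 1 to 12 (a label of unstated meaning), and 2 to 5 when 1 library was left out, with 5 without WT infarcted replicate 3 or OE infarcted replicate 1. Between OE and WT infarcted hearts the number (1, C3) was 0 without the filter, with library totals, with only the 2 groups, with the replicate block, within RA numbers 1 to 12, with lung and thymus covariates, without the Sftpc libraries and without the Rag1 libraries, and 0 to 1 with 1 library left out. Between WT infarcted and WT sham hearts the number (8) was 0 within RA numbers 1 to 12, 0 with the covariates and 0 without the Sftpc libraries, where 112, 0 and 5 of all tested genes were called in that order, and 1 to 9 with 1 library left out. DESeq2 and edgeR called 9, and 8.43% and 6.96% of all genes. Between sham genotypes 49.3% of tested genes passed, 52.7% with library totals, 52.4% with 2 groups and 40.5% within RA numbers 1 to 12. Between infarcted genotypes 31.9% passed, 37.9% with library totals and 23.3% with 2 groups. There RA numbers 1 to 12 gave 30.7%, the covariates 6.46% and leaving out the Rag1 libraries 5.31%. Leaving out 1 library gave 43% to 50% (sham), 24.6% to 34.7% (infarcted) and 1.93% to 13.1% (WT infarction).

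Sign changes in OE against WT infarcted hearts were, on the log2 scale, C1qa 0.079, C1qc 0.018 and C3ar1 0.049 with library totals, C1qb -0.022, C3ar1 0.21 and C5ar1 -0.21 with covariates, C1qa 0.085, Cfb 0.012 and Serping1 0.16 without the Sftpc libraries, and C1qb -0.0039, C1qc 0.00030, C3ar1 0.30 and C5ar1 -0.18 without the Rag1 libraries. With 1 library left out they ran from -0.21 to 0.11 for C1qa, -0.10 to 0.14 for C1qb, -0.25 to 0.020 for C1qc, -0.30 to 0.13 for C3ar1 and -0.093 to 0.32 for C5ar1. In OE infarcted against OE sham hearts C3ar1 was 0.25 with covariates and 0.27 without the Rag1 libraries, and with 1 library left out ran from -0.30 to 0.094, and C1qa from -0.037 to 0.24. The interaction was 0.44 for C3 and 0.12 for C5ar1 without the Sftpc libraries.

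Replicate numbers are shared between groups but do not pair the samples: same-numbered libraries correlated at -0.344 to 0.271 after group means were removed, with 7 of 24 pairs over 0.1. With the replicate block the 9 genes gave 4 calls between sham genotypes, 0 between infarcted genotypes, 6 for infarction in WT hearts, and 0 for infarction in OE hearts and for the interaction. Of all tested genes 48%, 30.3%, 4.92%, 0% and 0.14% were called there, in that order.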
